A study of Mus musculus with 21 samples.

Results

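The fibrillar collagens are the chains that assemble into the banded fibres of the extracellular matrix. The 9 genes described here (Col1a1, Col1a2, Col3a1, Col5a1, Col5a2, Col5a3, Col11a1, Col2a1 and Col27a1) were taken by symbol from the 3 count tables, which write them in capitals (COL1A1, COL1A2, COL3A1, COL5A1, COL5A2, COL5A3, COL11A1, COL2A1 and COL27A1), and were found in each table, among 24447 genes that the tables share. RNA-seq had been made of 21 mouse fibroblast cultures in 7 groups of 3. Mouse embryonic fibroblasts (MEF; strain label C57BL/6, embryos of E10 to E13) came as wild type (WT_MEF), as Prrx1 mutant (KI_MEF; the Prrx1tm1Jfm allele, in which LacZ interrupts the homeodomain) and as cells edited with CRISPR/Cas9 and a guide RNA to Prrx1 (SG_MEF). Wound-healing fibroblasts (C57BL/6, dorsal wound at day 10) and MMTV-CAFs, the cancer-associated fibroblasts of mammary tumours in MMTV-PyMT mice (FVB/NJ), each came as WT, carrying the non-targeting guide sgNS, and as sgPrrx1 (WT_Wound, SG_Wound, WT_MMTV, SG_MMTV). All cultures had been immortalized with HPV E6/E genes and grown in serum, so every group, controls included, shares those treatments. KI_MEF and SG_MEF were both compared with the same 3 WT_MEF cultures, and whether these carried sgNS is not given in the sources used here. Whether edited lines were clones, and whether the 3 cultures of a group were grown separately from the start, is not given in the sources used here, and p-values then measure only the spread between these cultures, which may be technical.

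Fibrillar collagens are made as procollagens, 3 chains wound into a triple helix in the endoplasmic reticulum, hydroxylated and glycosylated on the way, and trimmed of their propeptides outside the cell. Type I collagen, from Col1a1 and Col1a2, is the main fibre of skin, bone and tumour stroma. Type III (Col3a1) is interwoven with it in soft tissue. Types V (Col5a1, Col5a2, Col5a3) and XI (Col11a1, and in cartilage also Col2a1 and Col11a2) lie inside fibres and limit their diameter, type II (Col2a1) is the fibre of cartilage, and Col27a1 codes for a chain found in cartilage and developing tissue. Prrx1 is a paired-related homeobox transcription factor of mesenchymal cells.

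Each library held between 69588655 and 134790440 counts, and no 2 libraries of a group agreed within sampling noise. In the knock-in allele and after editing, transcripts can persist, so Prrx1 reads need not vanish. Prrx1 was at 192, 166 and 184 CPM (counts scaled to library totals of 1e6, scaled by TMM over all 21 cultures) in WT_MEF and at 26.1, 20.7 and 19.9 in KI_MEF (log2 fold change -3.04, adjusted p = 6.83e-06). In SG_MEF the Prrx1 values were 126, 94.9 and 140.5 CPM (-0.60, adjusted p = 0.0145). Prrx1 was also lower in SG_Wound (-1.18) and in SG_MMTV (-1.06). The adjusted p-values in the text are Benjamini-Hochberg values over all genes tested, from edgeR's quasi-likelihood test. Xist and the Y-linked genes divided the types: 4 Y-linked genes summed to 32.8 to 67.5 CPM in the MEF and wound groups and to 0 in every MMTV-CAF culture, so type, sex, strain and count table cannot be told apart where MMTV-CAFs are compared with another type. MEF and wound-healing fibroblasts share the strain label and the Y-linked reads, and between these, type and count table cannot be told apart. Some Y-linked values also differed within a type, as Kdm5d had at most 0.0354 CPM in KI_MEF against at least 10.6 in WT_MEF, and Ddx3y at most 2.18 in SG_Wound against at least 20.04 in WT_Wound. The lines of a type may thus differ in origin, and in these comparisons origin and loss of Prrx1 cannot be told apart. In bulk cultures, fewer cells that make a transcript and less of it per cell cannot be told apart.

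Promoters of 3 of the genes are shown for the way their transcripts moved: Col1a2, whose transcript fell furthest of the type I and III genes in one comparison, Col3a1, which fell in every comparison with WT, and Col11a1, which rose in one and was at 0 counts in another. Each is the 250 bases before a RefSeq start in GRCm38.p6, plus strand, 5′ to 3′, at chr6:4505368-4505617, chr1:45311288-45311537 and chr3:114030290-114030539. The gene record of Col11a1 starts at chr3:114030479, inside its window, so the end of that window lies within the gene. Of the windows counted below, those of Col5a1 and Col5a3 also end within their genes, and that of Col27a1 lies wholly within its gene. Capitals mark matches on either strand to 4 motifs, TAATTA (a homeodomain core), CCAAT (the NF-Y box), GGGCGG (the Sp1 box) and TATAAA (the TATA box).
Col1a2: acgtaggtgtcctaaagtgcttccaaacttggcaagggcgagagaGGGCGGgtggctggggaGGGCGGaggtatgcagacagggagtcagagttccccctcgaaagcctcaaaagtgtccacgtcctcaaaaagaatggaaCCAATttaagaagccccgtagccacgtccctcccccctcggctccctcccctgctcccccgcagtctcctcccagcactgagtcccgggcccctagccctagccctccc
Col3a1: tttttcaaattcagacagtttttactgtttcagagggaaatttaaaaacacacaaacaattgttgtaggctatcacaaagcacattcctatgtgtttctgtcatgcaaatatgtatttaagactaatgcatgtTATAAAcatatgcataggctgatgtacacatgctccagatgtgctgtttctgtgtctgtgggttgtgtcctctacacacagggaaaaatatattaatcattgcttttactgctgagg
Col11a1: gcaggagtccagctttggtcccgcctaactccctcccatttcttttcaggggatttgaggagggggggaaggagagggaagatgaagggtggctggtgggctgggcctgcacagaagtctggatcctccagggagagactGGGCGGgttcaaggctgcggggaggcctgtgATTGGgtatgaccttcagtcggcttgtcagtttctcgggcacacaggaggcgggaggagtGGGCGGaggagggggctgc
Among 32851 such windows of mouse genes, TAATTA was present in 4.84%, CCAAT in 33.8%, GGGCGG in 32.7% and TATAAA in 12.4%. The reference table held 6 of the 9 genes, and Col1a1, Col5a2 and Col2a1 were without a row. CCAAT occurred in 3 of the 6 (Col1a2, Col5a3 and Col11a1), GGGCGG in 5, TATAAA in 1 (Col3a1) and TAATTA in 0. Such matches describe letters and are not evidence of binding.

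Col1a1, Col1a2, Col3a1 and Col5a1 were lower than WT in the mutant and in all 3 edited groups, while the other 5 genes moved in opposite directions between groups or, in 1 case, did not pass the test. In the mutant MEF, Col1a1 and Col3a1 fell to 0.329 and 0.277 of WT while Col1a2 fell to 0.757 of it, and in sgPrrx1 wound-healing fibroblasts Col1a2 fell most of all the type I and III values. Of the 9 genes, the test called 6 lower and 3 higher in KI_MEF, where 59.9% of all genes tested were called, 30.5% lower and 29.4% higher. In SG_MEF it called 8 lower and 0 higher (43.1% of all genes called, 22.8% lower and 20.3% higher), in SG_Wound 7 lower and 2 higher (77.6% called, 39.3% lower and 38.3% higher) and in SG_MMTV 8 lower and 1 higher (83.1% called, 41.9% lower and 41.2% higher). With at least a 2-fold change asked for as well, the lower genes numbered 4, 3, 4 and 5 in the same order, where 14.5, 8.97, 7.06 and 12.8% of all genes were as much lower. The higher genes numbered 3, 0, 2 and 1 by that rule, and the share of all genes as much higher is not given here. The median log2 change over the 9 genes was -0.52, -0.83, -0.70 and -1.51 (the last also with Col11a1 at its bound, given further on), beside a median over all genes that lay close to 0 in each.

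**Figure D1:**
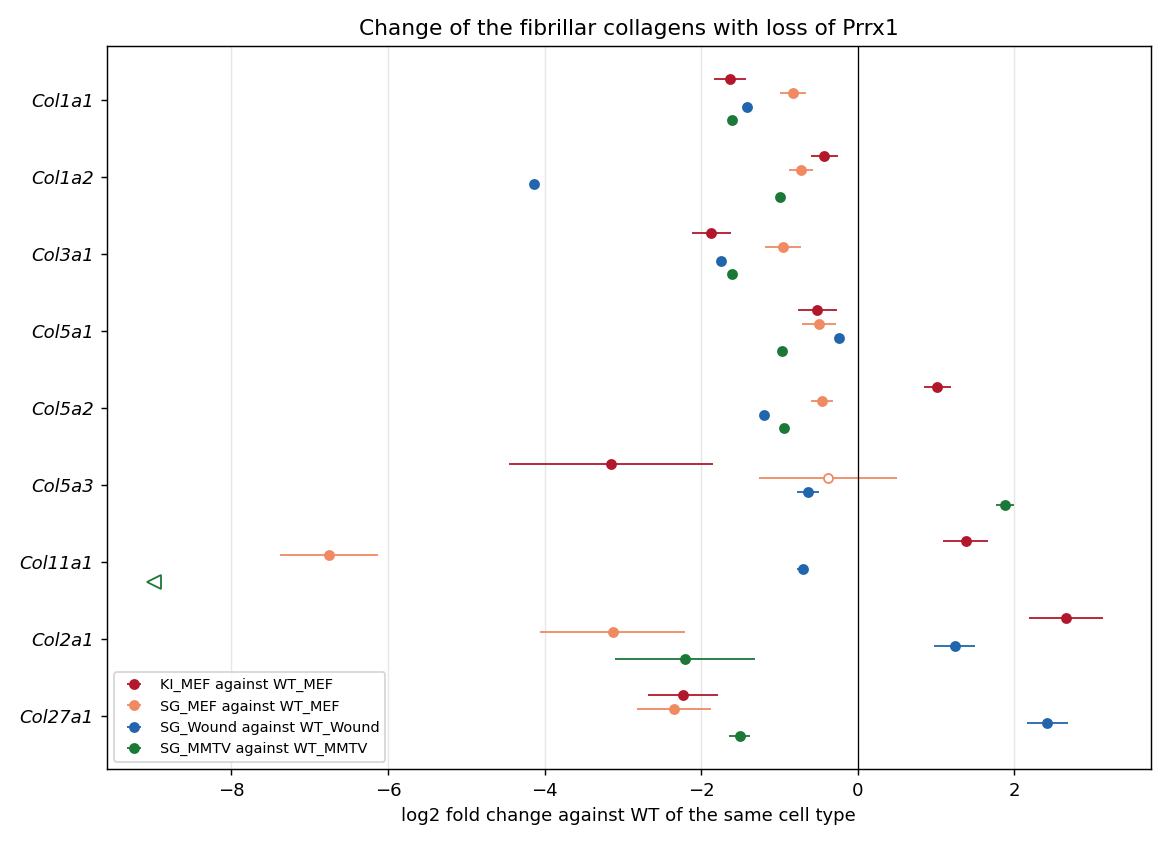
Log2 fold change (x axis) of each fibrillar collagen gene against WT of the same cell type, with 95% intervals from the fit (bars); filled points passed an adjusted p of 0.05 and the open circle did not. The open triangle marks the least fall of Col11a1 in SG_MMTV, whose 3 cultures held 0 counts; Col1a1, Col1a2, Col3a1 and Col5a1 are left of 0 in all 4 comparisons, and the other 5 genes change side.

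Col1a1, the larger part of type I collagen, was at 2938, 3018 and 3111 CPM in WT_MEF and at 903, 1017 and 1062 in KI_MEF. In SG_MEF Col1a1 was at 1762, 1759 and 1641 CPM. Both mutant and edited cultures lay wholly below WT, and KI_MEF lay below SG_MEF. The fitted log2 change of Col1a1 was -1.63 ± 0.09 (SE; 3 against 3 cultures) in KI_MEF and -0.83 ± 0.07 in SG_MEF. Col1a1 fell from 3337, 3215 and 3371 to 1252, 1225 and 1252 CPM in wound-healing fibroblasts (-1.42 ± 0.02). In MMTV-CAFs Col1a1 had the highest levels of the series, 10436, 10557 and 10398 CPM in WT and 3475, 3484 and 3518 in SG_MMTV (-1.60 ± 0.01). The SG_MMTV cultures were still above every WT culture outside MMTV-CAFs, but the next group, WT_Wound, did not differ from SG_MMTV past the threshold (adjusted p = 0.155 in a fit of all 21 cultures) and came before it under upper-quartile scaling.

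Col1a2, the other chain of type I, changed by unlike amounts. In WT_Wound Col1a2 was at 1881, 1819 and 1918 CPM, and in SG_Wound at 108, 106 and 106, so the level was 17.6 times lower. The log2 change was -4.14 ± 0.02 (adjusted p = 3.95e-12). In WT_MEF Col1a2 was at 2452, 2435 and 2479 CPM, in KI_MEF at 1777, 1879 and 1919 and in SG_MEF at 1552, 1496 and 1454. Here both groups lay below WT, and SG_MEF lay below KI_MEF (log2 difference -0.30 ± 0.07, adjusted p = 0.00948, which rose to 0.0990 with a replicate block). In MMTV-CAFs Col1a2 went from 9874, 9671 and 9740.5 CPM to 4909.7, 4983 and 5015 (-0.99 ± 0.01). The fall in SG_Wound exceeded those in SG_MEF and SG_MMTV, by 3.45 and 3.20 on the log2 scale, and both differences passed the test of the difference itself.

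The chain ratio followed from these values. Per kilobase of the longest protein-coding transcript, the ratio of Col1a1 to Col1a2 was 1.11 ± 0.03 (SD, n = 3) in WT_MEF, 1.59 ± 0.01 in WT_Wound and 0.967 ± 0.016 in WT_MMTV. It was 0.482 ± 0.021 in KI_MEF, 1.03 ± 0.02 in SG_MEF, 0.634 ± 0.004 in SG_MMTV and 10.5 ± 0.1 in SG_Wound. Thus the ratio was lower than WT in 3 comparisons and 6.61 times higher in SG_Wound. No culture of a changed group overlapped its WT group in any of the 4 comparisons, and the exact permutation test gave p = 0.1 for each, which is the smallest that 3 against 3 allows and cannot reach the threshold (also 0.1 when adjusted over the 4). The differences do not depend on the length used, while the ratios themselves do: over the union of all annotated exons, which for Col1a2 holds retained introns, the WT_MEF ratio would be 2.28. Transcripts were counted, not protein.

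**Figure D2:**
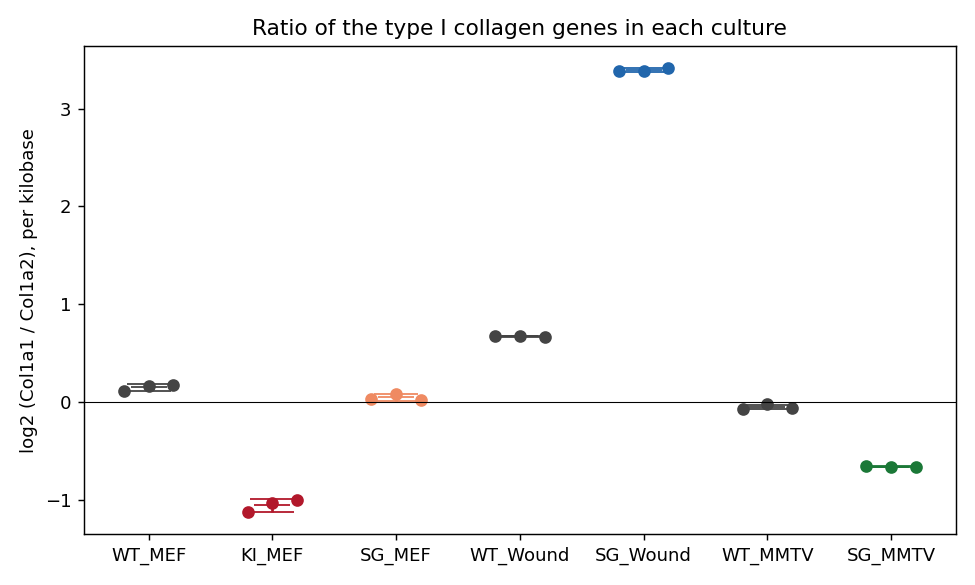
Log2 of the ratio of Col1a1 to Col1a2 counts per kilobase of transcript (y axis) in each of 21 cultures (points), with group mean and SD (bars), by group (x axis). The 3 SG_Wound cultures sit apart, above every other culture, and the KI_MEF cultures are the lowest.

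Col3a1, the type III chain of soft tissue, fell in every comparison. It was at 1089, 1161 and 1379 CPM in WT_MEF, 339, 344 and 323 in KI_MEF and 614, 632 and 643 in SG_MEF. Col3a1 went from 506, 502 and 514 to 147, 154 and 155 CPM in wound-healing fibroblasts, and from 5953, 5697 and 5708 to 1929, 1911 and 1938 in MMTV-CAFs. No range overlapped its WT. The log2 changes of Col3a1 were -1.87 ± 0.11, -0.95 ± 0.10, -1.74 ± 0.02 and -1.61 ± 0.02. The falls in the edited wound and MMTV-CAF cultures exceeded that in SG_MEF by 0.82 and 0.63 on the log2 scale, but differed from each other by 0.19 ± 0.08 (adjusted p = 0.0537).

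**Figure D3:**
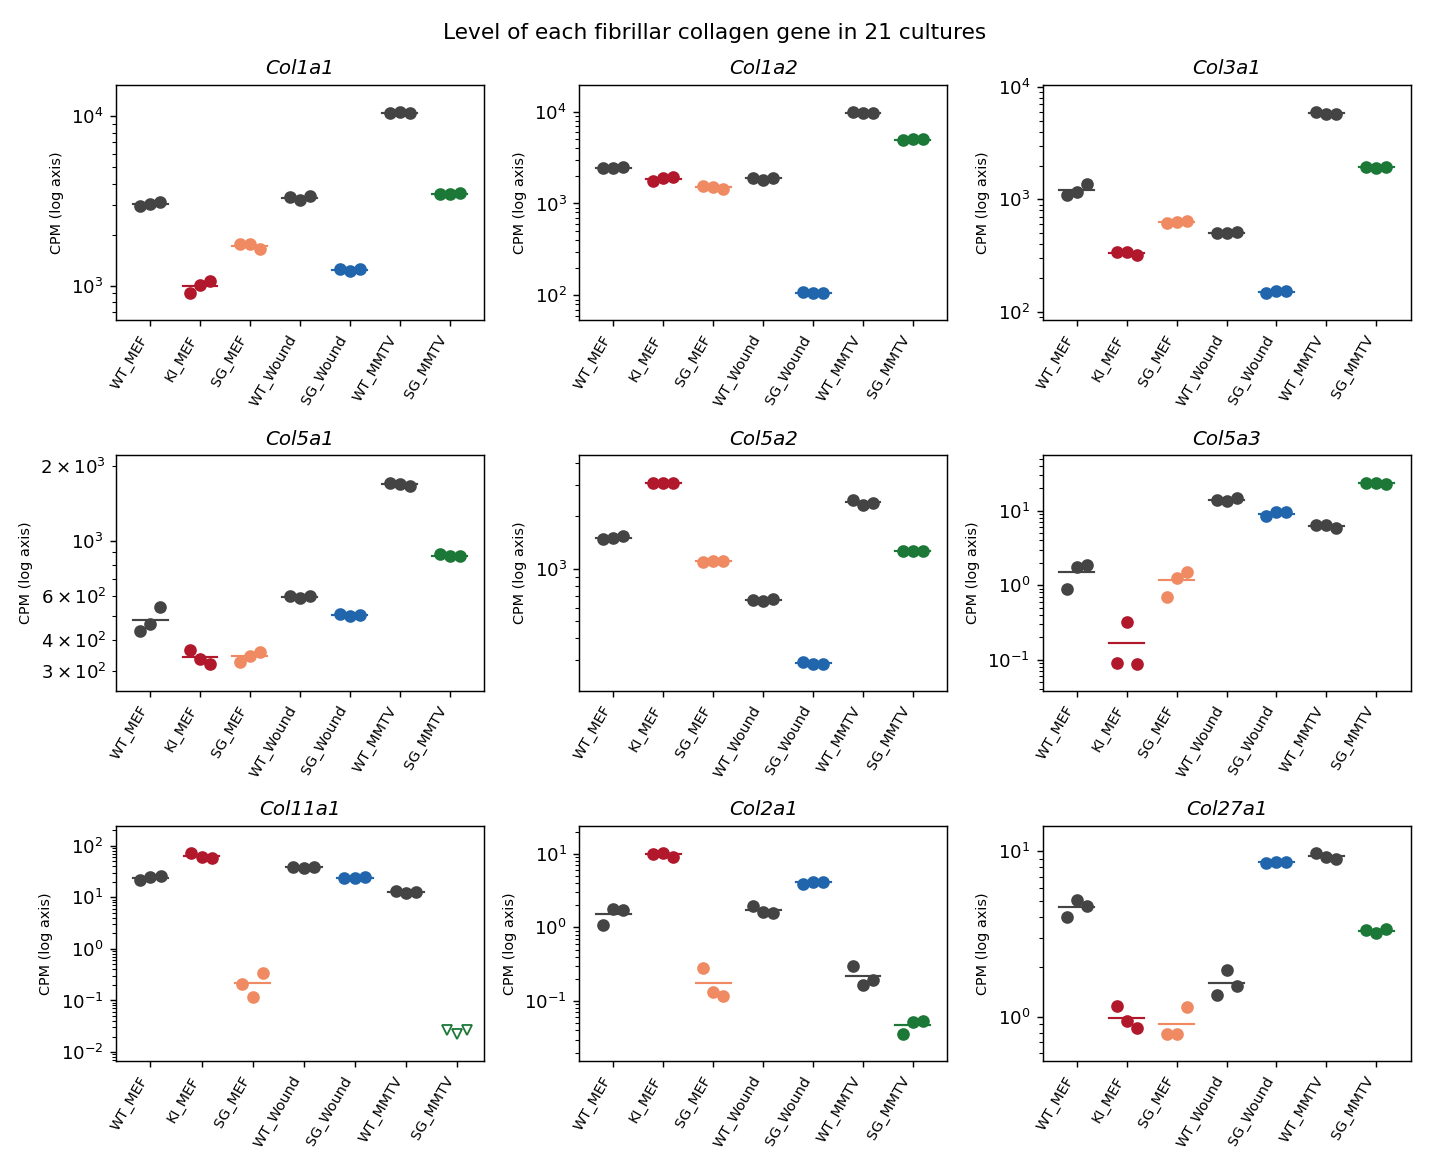
Level of each fibrillar collagen gene (y axis, CPM on a log axis, scaled over all 21 cultures) in each culture (points) by group (x axis), with the group mean as a bar. Open triangles mark cultures with 0 counts, drawn at the level of 3 counts; Col1a1, Col1a2, Col3a1 and Col5a1 are highest in WT_MMTV, while Col5a2, Col11a1 and Col2a1 are highest in KI_MEF.

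The type V chains did not move as a unit. Col5a1, the chain that most forms of type V share, fell in every comparison, least in SG_Wound and most in SG_MMTV. It went from 435, 464 and 539.6 CPM in WT_MEF to 365, 334 and 321 in KI_MEF and 327, 346 and 357 in SG_MEF. Col5a1 was at 598, 587 and 600.1 CPM in WT_Wound and 509.8, 499.9 and 501 in SG_Wound, and at 1708, 1691 and 1650.1 in WT_MMTV and 879.9, 865 and 867 in SG_MMTV. The log2 changes of Col5a1 were -0.52, -0.49, -0.24 and -0.97, all past the threshold. The fall in SG_Wound was less than that in SG_MEF by 0.22 on the log2 scale (adjusted p = 0.0232, which became 0.0535 without SG_MEF replicate 1).

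Col5a2, the usual partner of Col5a1, rose in the mutant MEF. It was at 1483, 1505 and 1527 CPM in WT_MEF and at 3075, 3100.0 and 3076 in KI_MEF, the highest level of any group. The log2 change was 1.01 ± 0.07 (adjusted p = 4.38e-05). In SG_MEF Col5a2 was instead at 1092, 1110.2 and 1112 CPM, below WT (-0.46 ± 0.06). It fell from 659, 655 and 669.6 to 292, 287 and 287 CPM in wound-healing fibroblasts (-1.20 ± 0.02) and from 2474, 2322 and 2368 to 1262, 1263 and 1257 in MMTV-CAFs (-0.94 ± 0.02). Col5a2 and Col3a1 are neighbours on chromosome 1 in GRCm38.p6 (Col3a1 at chr1:45311538-45349706, Col5a2 at chr1:45374331-45503282), 24.6 kb apart with 0 annotated genes between them. In KI_MEF the pair moved in opposite directions, and in the 3 edited groups in the same one.

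Col5a3, the rarer chain, was low in MEF, at most 1.85 CPM. Its counts were 61, 122 and 161 in WT_MEF and 7, 27 and 6 in KI_MEF (log2 change -3.15 ± 0.55, adjusted p = 0.0025). In SG_MEF, Col5a3 was at 0.695, 1.26 and 1.52 CPM against 0.885, 1.76 and 1.85, ranges that overlapped (log2 change -0.38 ± 0.37, adjusted p = 0.436). It fell from 14.1, 13.7 and 14.8 to 8.41, 9.52 and 9.55 CPM in SG_Wound (-0.64 ± 0.06). In MMTV-CAFs Col5a3 rose, from 6.52, 6.51 and 5.93 to 24.0, 23.7 and 23.0 CPM (1.88 ± 0.05, adjusted p = 8.02e-09). It is the single member called higher in SG_MMTV.

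Col11a1, the type XI chain seen in cartilage and in activated stroma, ranged most. In WT_MEF Col11a1 was at 21.9, 24.6 and 25.9 CPM and in KI_MEF at 72.0, 61.7 and 57.1, a log2 rise of 1.38 ± 0.12. In SG_MEF the counts of Col11a1 were 14, 8 and 26, or 0.207, 0.118 and 0.335 CPM (-6.75 ± 0.27). The mutant and the edited MEF lay on opposite sides of WT. Col11a1 was at 13.4, 12.2 and 12.8 CPM in WT_MMTV and at 0 counts in each SG_MMTV culture, so that it was at least 508-fold lower (against a floor of 3 counts per library). In wound-healing fibroblasts Col11a1 went only from 39.2, 37.8 and 38.8 to 23.3, 23.7 and 24.3 CPM (-0.70 ± 0.03).

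Col2a1, the cartilage fibre chain, was a rare transcript throughout, at or below 10.2 CPM. In WT_MEF it was at 1.09, 1.76 and 1.75 CPM, in KI_MEF at 10.1, 10.2 and 9.17 (log2 change 2.66 ± 0.20), and in SG_MEF at 0.281, 0.133 and 0.116 (-3.13 ± 0.39). Again KI_MEF lay above WT and SG_MEF below. Col2a1 rose from 1.98, 1.61 and 1.57 to 3.95, 4.15 and 4.14 CPM in SG_Wound (1.24 ± 0.11). In SG_MMTV Col2a1 had 4, 7 and 6 counts against 32, 19 and 26 in WT_MMTV (-2.21 ± 0.38). Chondrocyte markers were read beside these values. Of the 6, 4 were tested in KI_MEF and 3 were higher, where 29.4% of all genes tested were higher. Acan, the cartilage proteoglycan, went from 0 counts in each WT_MEF culture to a mean of 0.679 CPM, and Col10a1 from 0 to 1.38 CPM. Acan and Col10a1 passed the filter only through KI_MEF and could be called only higher, so their calls cannot be weighed against the 29.4%. Matn1 and Col9a1 were at 0 in WT_MEF and KI_MEF. The summed level of the list was 16.5 to 18.9 CPM in WT_MEF and 21.7 to 24.2 in KI_MEF. In SG_MEF, where Col2a1 and Col11a1 were lower, 1 of 2 tested was higher (20.3% of all genes): Sox9, the transcription factor of cartilage, went from a mean of 17.4 to 34.5 CPM, and the list summed to 34.1 to 35.6 CPM. In SG_Wound 1 of 2 was higher (38.3% of all genes), again Sox9 (0.34). In SG_MMTV 2 of 3 were lower and 1 higher (41.9 and 41.2% of all genes). Sox9 (-1.55) and Comp (-2.21), a cartilage matrix protein, were the lower ones there and Col10a1 (1.06) the higher one, and the list went from 69.3 to 72.6 CPM in WT_MMTV to 23.8 to 26.1 in SG_MMTV. Their part in the Col2a1 and Col11a1 values was not tested.

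Col27a1 was at 3.99, 5.04 and 4.68 CPM in WT_MEF, 1.16, 0.944 and 0.851 in KI_MEF and 0.784, 0.783 and 1.15 in SG_MEF. It fell by 2.23 and 2.34 on the log2 scale, and the mutant and the edited MEF overlapped. In MMTV-CAFs Col27a1 fell from 9.71, 9.22 and 8.89 to 3.34, 3.19 and 3.38 CPM (-1.51 ± 0.06). In wound-healing fibroblasts it rose instead, from 1.35, 1.92 and 1.53 to 8.50, 8.63 and 8.56 CPM (2.42 ± 0.12), and differed from the fall in SG_MEF by 4.73 on the log2 scale. Outside the 9 genes, the related chain Col11a2 rose in KI_MEF (1.94), SG_Wound (1.04) and SG_MMTV (0.38), while Col24a1 was near its floor, with 0 counts in KI_MEF.

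The mutant and the edited MEF were also set against each other. Of the 9 genes, SG_MEF was lower than KI_MEF in 4 and higher in 3, where 56.2% of all genes tested were called, 28.4% lower and 27.8% higher. Col11a1 (-8.13), Col2a1 (-5.80), Col5a2 (-1.47) and Col1a2 were the lower ones, and Col5a3 (2.76), Col3a1 (0.91) and Col1a1 (0.80) the higher ones. Col5a1 and Col27a1 did not pass (0.02, 95% interval -0.16 to 0.20, and -0.12, -0.68 to 0.45). The groups differ in allele, in origin and in the level of Prrx1 left, and these cannot be told apart.

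The make-up of the fibrillar transcripts shifted with these changes. Per kilobase, the 5 genes of types I, III and V other than Col5a3 held nearly all of the summed level. Col5a2 made up 15.4% of it in WT_MEF and 42.6% in KI_MEF. Col1a1 made up 47.4% in WT_Wound and 57.1% in SG_Wound, Col1a2 29.7 and 5.43%, and Col5a1 6.01 and 16.3%. In SG_MEF the shares of Col1a1 (32.5%) and Col1a2 (31.5%) were close to those of WT_MEF (34.6 and 31.2%). Summed without lengths, the 9 genes took 0.831% of all counts in WT_MEF, 0.666% in KI_MEF and 0.495% in SG_MEF, 0.699 and 0.252% in WT_Wound and SG_Wound, and 2.96 and 1.34% in WT_MMTV and SG_MMTV.

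**Figure D4:**
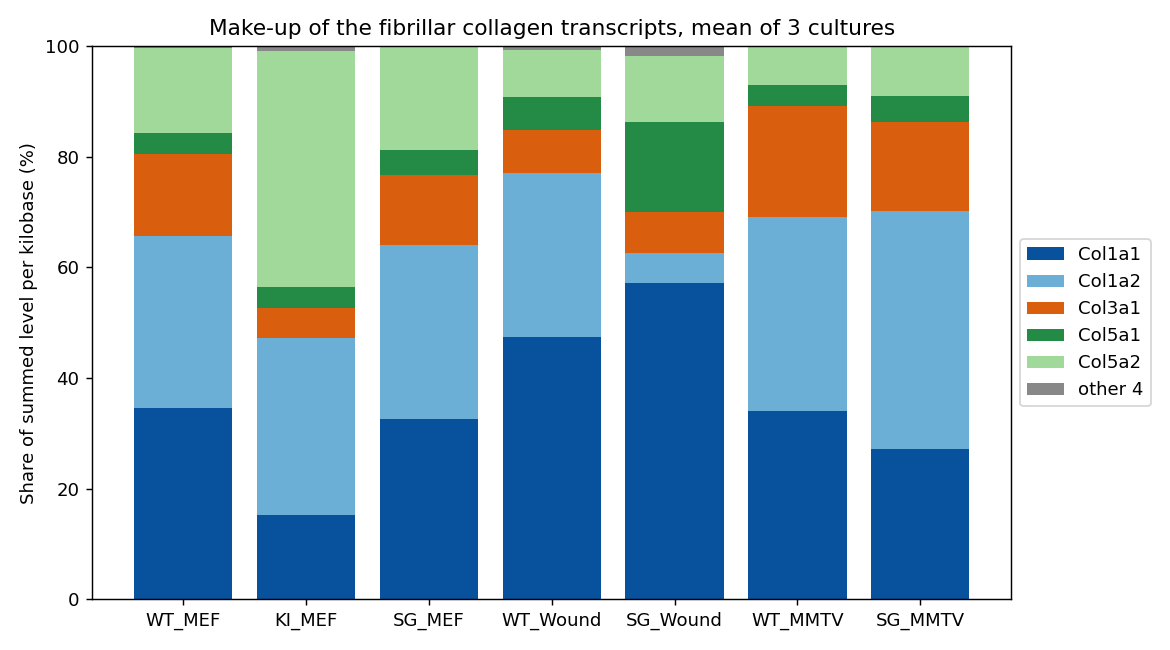
Share of the summed level per kilobase of transcript (y axis, percent) that each fibrillar collagen gene held, as the mean of 3 cultures in each group (bars, x axis). Col5a2 takes 42.6% in KI_MEF against 15.4% in WT_MEF, and Col1a2 5.43% in SG_Wound against 29.7% in WT_Wound.

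Between cell types, the change with sgPrrx1 differed in 24 of the 27 tests (9 genes, 3 pairs of types), where 60.3, 60.7 and 66.5% of all genes passed for wound-healing fibroblasts against MEF, MMTV-CAFs against MEF, and MMTV-CAFs against wound-healing fibroblasts. The 3 that did not pass were Col5a3 between wound-healing fibroblasts and MEF (adjusted p = 0.440), Col2a1 between MMTV-CAFs and MEF (0.147) and Col3a1 between MMTV-CAFs and wound-healing fibroblasts. Levels were ordered over the 7 groups for each gene. WT_MMTV was highest for Col1a1, Col1a2, Col3a1, Col5a1 and Col27a1 (for Col27a1 SG_Wound came first under upper-quartile scaling), KI_MEF for Col5a2, Col11a1 and Col2a1, and SG_MMTV for Col5a3. Of 54 pairs of neighbours in these orders, 44 differed past the threshold and 10 did not, among them WT_Wound and KI_MEF for Col1a2 (adjusted p = 0.799), SG_MEF and KI_MEF for Col5a1 (0.888) and WT_MEF and SG_Wound for Col11a1 (0.869).

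Over the 21 cultures, the genes most like Col1a1 in log2 CPM, out of 15093, were Cd248, a pericyte and stromal surface protein, at a Pearson r of 0.984, Tmem119 at 0.979 and Scarb2 at 0.969. For Col1a2 they were Runx1t1 (0.980), Pdgfrb, a growth factor receptor of mesenchymal cells (0.959), and Col6a3 (0.958), and for Col3a1 Scp2 (0.986), Mrc2, a receptor that takes up collagen (0.984), and Bnc2 (0.983). The points share cell types and strains, so these values describe the groups as much as the genes.

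The enzymes and chaperones of procollagen were read from a list of 30 genes, of which 26 were tested in each comparison. In KI_MEF 11 were lower and 6 higher, in SG_MEF 17 and 1, in SG_Wound 17 and 8 and in SG_MMTV 18 and 5, beside the shares of all genes given above. With at least a 2-fold change asked for as well, 5, 5, 5 and 8 were lower, where 14.5, 8.97, 7.06 and 12.8% of all genes were. By the same rule 1, 0, 1 and 1 were higher, and the share of all genes as much higher is not given here. Propeptide removal fell in all 6 tested genes in KI_MEF, where 30.5% of all genes tested were lower. Tll1, a tolloid protease that cuts the C-propeptide, was at 56.8 CPM in WT_MEF, 12.4 in KI_MEF (-2.22) and 10.7 in SG_MEF (-2.42). In SG_MMTV Tll1 had at most 3 counts in a culture against 10.2 CPM in WT_MMTV, Pcolce2, an enhancer of that cleavage, fell by 4.96 on the log2 scale and Adamts2, an N-propeptidase, by 2.40. In wound-healing fibroblasts 5 of 7 such genes were higher instead, where 38.3% of all genes tested were higher. Adamts3, another N-propeptidase, led them (2.20) and also rose in SG_MMTV (1.66). Creb3l1, a transcription factor of the secretory pathway, fell in KI_MEF (-1.62), SG_MEF (-1.49), SG_Wound (-1.55) and SG_MMTV (-1.87). The genes of prolyl hydroxylation fell in 7 of 10 in SG_MEF (22.8% of all genes were lower), with P4ha3 at -2.04. In SG_Wound 9 of 10 fell (39.3% of all genes were lower), with P3h2 at -1.06 and P3h3 at -1.04. P4ha3 rose there (0.60). In KI_MEF P3h2 (1.44), Fkbp14 (0.74) and P3h3 (0.72) rose, and Adamts14 fell (-2.08), whereas in SG_MEF Adamts14 was the one gene of the list that rose (0.56). In SG_Wound Pcolce2 rose as well (0.69), and in SG_MMTV Tmem38b (0.95) and Colgalt1 (0.35).

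Markers of other cells were read beside the collagens. Of the fibroblast list (Pdgfra, Pdgfrb, Vim, Thy1, Dcn, Lum, S100a4 and Fap), all 6 tested were lower in KI_MEF (30.5% of all genes tested were lower) and all 8 in SG_Wound (39.3%). Lum, at 0 counts in SG_Wound, and Fap, at most 6, passed the filter there only through WT_Wound. These could be called only lower, so their calls cannot be weighed against the 39.3%. In SG_MEF 5 were lower and 1 higher (22.8 and 20.3% of all genes), and in SG_MMTV 5 were lower and 2 higher (41.9 and 41.2%). Their summed level was 5736 to 6408 CPM in WT_MEF, 2656 to 3654 in KI_MEF and 6157 to 7728 in SG_MEF. It was 3716 to 3997 in WT_Wound and 2107 to 2145 in SG_Wound, and 7337 to 7668 in WT_MMTV and 6525 to 6573 in SG_MMTV. Vim made up most of the MEF sums, with means of 5075 CPM in WT_MEF, 2817 in KI_MEF and 6504 in SG_MEF. In SG_MEF Vim was the 1 gene called higher, while Pdgfra went from a mean of 142 to 16.6 CPM and Dcn from 48.8 to 9.56. Epithelial and leukocyte lists summed to at most 13.6 and 7.24 CPM in any culture, with Epcam at 0 in the MEF and MMTV-CAF groups and Cd3e and Adgre1 at 0 in all. The endothelial list summed to 287 to 293 CPM in WT_Wound and 140.0 to 144.9 in SG_Wound, with Pecam1 at 0 in both. Kdr, a receptor for VEGF, made up nearly all of that sum, at means of 290.3 and 142 CPM, and Cdh5 and Tek were below 0.1 CPM on average. The osteoblast list summed to at most 5.75 CPM in WT_MMTV and at least 29.1 in SG_MMTV, and to at most 1.97 in WT_Wound and at least 14.4 in SG_Wound. Nearly all of it was Alpl, an alkaline phosphatase that other cells also make, with means of 4.54 and 30.1 CPM in MMTV-CAFs and 1.74 and 14.99 in wound-healing fibroblasts, WT first, while Bglap, the osteocalcin gene, was lower in SG_MMTV (0.186 to 0.0153 CPM). Their part in the collagen values was not tested.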

How the data were processed

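The authors deposited counts: a table of whole-number read counts per gene for each fibroblast type, without normalization. Libraries were made with the TruSeq RNA v2 kit, which does not mark strand, and read as 100 bp pairs. Per the labels, Trimmomatic, STAR and HTSeq had been used, with mm10 as the genome build. ComBat-seq is named by the study after its human samples, and whether it was applied here is not given in the sources used here. Each of the 21 columns was matched to a culture (0 without one). Columns of wound-healing fibroblasts name genotype and number only and were assigned by elimination.

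The main test was edgeR's quasi-likelihood test (version 4.0.16, R 4.3.3) after filterByExpr and TMM scaling. A gene almost absent from a group passes that filter only through the other group, and can then be called in a single direction. The threshold was 0.05 for p-values adjusted by Benjamini-Hochberg, with only the 6 cultures of a comparison in its fit. The standard error is the absolute log2 fold change divided by the square root of F. Differences between types were tested as interactions over 18 cultures. Levels are CPM with 1 TMM scaling over all 21 cultures. The chain ratio was compared by a two-sided exact permutation test in scipy 1.17.1. Lengths came from the longest protein-coding transcript of Gencode M1. The union of exons was computed first and replaced after its values were seen, because retained introns lengthen it for Col1a2, and it is kept as an alternative. Promoters came from a RefSeq table of GRCm38.p6. Floors cover counting error only, as reads carry no molecular identifiers.

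The members, the lists and the tests were chosen with earlier results of these data known. The named genes are the 9 members, Prrx1, Col11a2 and Col24a1, the 3 largest falls and rises past the threshold in the procollagen list per comparison, and the 3 genes most correlated with Col1a1, Col1a2 and Col3a1. The Y-linked genes, Xist, the promoter of Col11a1, and Creb3l1 in SG_MMTV do not fall under that rule. They were picked once values were known, as were the marker genes given with values. Alternatives were DESeq2 1.42.0, RLE and upper-quartile scaling, no filter, at least 10 counts in every culture, a replicate block, all 9 MEF cultures in one model, a 2-fold threshold and each culture left out. Simulated counts with 200 changed genes were used to test both fits.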

Additional observations from a re-analysis of the deposited data

Results flagged for a closer look

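The change with sgPrrx1 differed between fibroblast types for all 9 genes in at least 1 pair, in 24 of 27 tests of the difference itself (edgeR interaction test, adjusted p under 0.05). Over all genes tested, 60.3% passed for wound-healing fibroblasts minus MEF, 60.7% for MMTV-CAFs minus MEF and 66.5% for MMTV-CAFs minus wound-healing fibroblasts. Values are differences of log2 changes, with a negative value where the first type of the pair had the larger fall or the smaller rise. Type and count table cannot be told apart in these tests, and with MMTV-CAFs sex and strain differ as well. For wound-healing fibroblasts minus MEF, the differences were -0.63 for Col1a1, -3.45 for Col1a2, -0.82 for Col3a1, 0.22 for Col5a1, -0.77 for Col5a2, 6.02 for Col11a1, 4.34 for Col2a1 and 4.73 for Col27a1. For MMTV-CAFs minus MEF, the differences were -0.76 for Col1a1, -0.25 for Col1a2, -0.63 for Col3a1, -0.46 for Col5a1, -0.46 for Col5a2, 2.28 for Col5a3, -6.43 for Col11a1 and 0.85 for Col27a1. For MMTV-CAFs minus wound-healing fibroblasts, the differences were -0.13 for Col1a1, 3.20 for Col1a2, -0.67 for Col5a1, 0.31 for Col5a2, 2.57 for Col5a3, -12.44 for Col11a1, -3.39 for Col2a1 and -3.87 for Col27a1. The values of Col11a1 that involve MMTV-CAFs are fitted against 0 counts in SG_MMTV and are no bound. The difference of Col1a1 between MMTV-CAFs and wound-healing fibroblasts did not pass without WT_Wound replicate 2 (-0.11, adjusted p = 0.0752), and that of Col5a1 between wound-healing fibroblasts and MEF did not pass without SG_MEF replicate 1 (0.19, adjusted p = 0.0535).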

How the results depend on the processing

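The counts of members called stayed at 9, 8, 9 and 9 of 9 in KI_MEF, SG_MEF, SG_Wound and SG_MMTV against WT under DESeq2, RLE, upper-quartile scaling, no filter, the replicate block and each culture left out, and at 9 genes for the differences between types. Asking for 10 counts in every culture left 8, 6, 9 and 7 called, as fewer genes were tested, and 4 in SG_MEF against KI_MEF (7 otherwise, 6 with the replicate block). A 2-fold change as well left 3 in SG_MEF against WT, 4 in SG_MEF against KI_MEF and 5 between types. In the procollagen list it left 6, 5, 6 and 9, lower and higher together. Leaving out a culture moved that list to 14 to 19, 12 to 17, 25 to 26 and 22 to 24, and the counts of members not at all. In SG_MEF against KI_MEF, Col5a1 changed sign under upper-quartile scaling (-0.018) and without KI_MEF replicate 3 (-0.028 to 0.071 over the cultures left out), and Col27a1 without KI_MEF replicate 1 (-0.33 to 0.015), neither past the threshold in any. With the replicate block, Col1a2 there lost its call, and the differences of Col5a3 between wound-healing fibroblasts and MEF (-0.29, adjusted p = 0.0346) and of Col3a1 between MMTV-CAFs and wound-healing fibroblasts (0.19, adjusted p = 0.0295) gained one. Without SG_MEF replicate 1, that of Col2a1 between MMTV-CAFs and MEF gained one (1.45, adjusted p = 0.0239). The cause was not tested. Same-numbered cultures did not deviate together in every pair of any comparison (r -0.36 to 0.20), which cannot exclude a shared preparation. In SG_MEF against WT_MEF these values were 0.10, -0.05 and 0.20. The main fits assumed no pairing, and whether same-numbered cultures belong together is not given in the sources used here. Across all genes the block moved the calls from 7513 to 5268 in SG_MEF against KI_MEF and by less elsewhere. All genes called in SG_MEF against WT fell from 5764 to 3830 without WT_MEF replicate 2 and to 3834 without SG_MEF replicate 2. Leaving out a culture moved the chain ratio to -1.23 to -1.17, -0.12 to -0.09, 2.71 to 2.73 and -0.62 to -0.60 on the log2 scale. Orders of groups changed for Col1a1, Col5a1, Col11a1 and Col27a1 under upper-quartile scaling (43 of 54 neighbour pairs past the threshold) and for 0 genes under RLE. Col5a3, Col2a1 and Col11a1 had under 30 counts in some cultures, which limits their precision.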
